A study of Mus musculus with 165 samples.

Results

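The 9 genes Ifit1, Ifit3, Ifit3b, Rsad2, Oas1a, Oasl2, Isg15, Usp18 and Irf7 are induced by type I interferon, and their messenger RNA was followed from young adulthood to old age in the brain and the liver of the same mice. They were taken as the rows of both gene count tables whose Ensembl identifiers carry those symbols, which gave 9 of 55471 identifiers in each table. The rule itself uses names only. The mice were male C57BL/6J/Ukj, an inbred strain, and each library came from the polyA RNA of 1 organ of 1 mouse. Brain libraries numbered 15, 16, 16, 17 and 18 at 3, 9, 15, 24 and 28 months of age, and liver libraries 16, 16, 16, 17 and 18 at the same ages. The youngest age, 3 months, served as the reference, and no group carried a genotype or treatment. The brain of 3-month mouse 6 is not analysed here. Libraries were made in 3 preps, a batch label that brain and liver of a mouse always shared, with 4 to 7 libraries of each prep at each age.

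Type I interferons are secreted when cells sense foreign or misplaced nucleic acid. They bind a receptor made of Ifnar1 and Ifnar2, whose kinases Jak1 and Tyk2 activate a complex that holds Stat2 and Irf9. It enters the nucleus and binds a promoter element known as the interferon-stimulated response element, or ISRE. The proteins made in response block viral RNA and modify other proteins, and in the brain microglia and in the liver Kupffer cells are well known responders. Usp18 acts as a brake on the receptor, and Irf7 amplifies the transcription of interferon genes, so the set holds effectors together with both kinds of regulator.

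The ISRE core was searched as 2 copies of GAAA separated by any 2 bases, on both strands of RefSeq promoters (GRCm38.p6, 250 bases before to 50 after each start, 300 bases in all), because it is the element these genes are known to share. By symbol 8 of the 9 members matched an entry; Usp18 did not. The letters were found in 6 of these 8 promoters (75%), in 3.44% of all 32851 promoters and in 45.9% of the promoters of 74 entries for other listed interferon-stimulated genes. A match is a description of the sequence only. The stretches around the matches follow, 5′ to 3′ on the strand of the gene, with the matched bases in capitals. They lie at chr19:34640765-34640833 (plus strand) for Ifit1, chr19:34583353-34583436 (plus) for Ifit3, chr19:34607749-34607832 (plus) for Ifit3b, chr12:26456543-26456592 (minus) for Rsad2, chr5:120907510-120907565 (minus) for Oas1a and chr4:156200855-156200916 (minus) for Isg15.
Ifit1: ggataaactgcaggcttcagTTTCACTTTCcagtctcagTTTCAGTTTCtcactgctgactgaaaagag
Ifit3: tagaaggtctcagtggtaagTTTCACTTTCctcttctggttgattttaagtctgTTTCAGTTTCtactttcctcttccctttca
Ifit3b: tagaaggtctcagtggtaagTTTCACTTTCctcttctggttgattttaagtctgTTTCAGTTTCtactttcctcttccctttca
Rsad2: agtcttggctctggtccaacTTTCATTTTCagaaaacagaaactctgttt
Oas1a: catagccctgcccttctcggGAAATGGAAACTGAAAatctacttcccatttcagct
Isg15: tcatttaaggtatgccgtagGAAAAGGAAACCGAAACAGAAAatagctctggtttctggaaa
Ifit1, Ifit3 and Ifit3b each held 2 separate matches that read on the opposite strand, whereas the 2 matches of Oas1a and the 3 of Isg15 overlapped one another on the strand of the gene. The stretches of Ifit3 and Ifit3b are identical letter for letter, and the longest run their promoters share is 169 bases. No match lay in the promoters of Oasl2 and Irf7. The core of the other interferon element, GAS (TTCNNNGAA, both strands), lay in the Oas1a promoter alone among the 8, or 12.5%, beside 8.30% of all promoters.

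The members are protein-coding genes on 6 chromosomes in the GENCODE annotation of GRCm38. The 3 Ifit genes sit together on chromosome 19, at 34640871 to 34650009 for Ifit1, 34583531 to 34588731 for Ifit3 and 34607970 to 34613401 for Ifit3b. Oas1a (120896256 to 120907521) and Oasl2 (114896936 to 114912234) lie on chromosome 5. Rsad2 lies on chromosome 12 (26442746 to 26456452), Isg15 on chromosome 4 (156199424 to 156200818), Usp18 on chromosome 6 (121245906 to 121270917) and Irf7 on chromosome 7 (141262706 to 141266481). Some members have near copies that a read counter can confuse: 31.7% of all 100-base windows of the Ifit3 transcripts also occur in Ifit3b, 40.9% of those of Oas1a occur in Oas1g, and 3.29% of those of Ifit1 occur in Ifit1bl2. The values of Ifit3, Ifit3b and Oas1a are therefore uncertain, by an amount that these shares of sequence do not give. Exons of Usp18 overlap the opposite-strand gene Gm44148 by 124 bases and those of Irf7 overlap Phrf1 by 45 bases.

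Library size ran from 11.5 to 73.4 M assigned reads in brain (median 37.6 M) and from 5.82 to 57.5 M in liver (median 32.9 M), where M stands for mega. All levels are given in CPM, counts per M assigned reads after TMM scaling between libraries. Albumin, a hepatocyte product, reached at most 18.5 CPM in brain against at least 14018 CPM in liver, and Snap25, a synaptic gene, at most 40.4 CPM in liver against at least 966 CPM in brain, so no library went against its organ label. A few libraries stood apart from the others of their age over all genes. The 28-month brain library of mouse 15 (median correlation 0.856, 11.5 M reads) and the 24-month brain of mouse 13 (0.942) were the least alike in brain. In liver these were the 24-month libraries of mice 13 (0.932) and 10 (0.955) and the 28-month library of mouse 14 (0.948).

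The members were expressed at low levels in brain. Over all libraries the medians of all members but Ifit3b were higher in liver. Per kilobase of merged exon, the median brain level was 3.89 CPM for Ifit3, 1.96 for Ifit3b, 1.65 for Isg15, 1.09 for Ifit1, 0.921 for Oasl2, 0.790 for Irf7, 0.528 for Rsad2, 0.447 for Usp18 and 0.364 for Oas1a. In liver the order was different: Irf7 came first at 16.8 CPM per kilobase, followed by Isg15 at 12.7, Ifit3 at 8.10, Ifit1 at 4.13, Usp18 at 3.17, Rsad2 at 2.72, Oas1a at 2.29, Ifit3b at 1.55 and Oasl2 at 1.47. The ranges over libraries of every pair of neighbours in both orders overlapped. The merged exons of Irf7 span its whole gene of 3776 bases, which lowers its value per kilobase. Only 1 of these library values rested on 3 reads or fewer, Oas1a in the 28-month brain of mouse 15 with 1 read.

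At 3 months every member was lower in brain than in liver, which is a comparison of whole organs that differ in most genes. In such bulk libraries, fewer cells of a type and less RNA per cell cannot be told apart. The joint model of both organs held no term for the mouse. In it 9 of 9 members were lower in brain, where 90.1% of 14035 genes differed, 43.2% lower and 47.0% higher in brain. Irf7 showed the widest gap, with 1.82 to 5.42 CPM in brain (median 2.72, n = 15) and 28.6 to 149 CPM in liver (median 62.5, n = 16). The Irf7 ranges did not overlap, and the log2 difference was -4.91 ± 0.20 (SE; edgeR adjusted p = 2.65e-55). Isg15 (-3.69 ± 0.23), Usp18 (-3.64 ± 0.20), Rsad2 (-3.43 ± 0.18) and Oas1a (-3.39 ± 0.24) followed. Ifit1 (-2.64 ± 0.21), Ifit3 (-1.87 ± 0.19) and Oasl2 (-1.37 ± 0.21) differed less, and Ifit3b differed least at -0.65 ± 0.18 (adjusted p = 0.000644). Within prep 3 alone 7 members passed, and the difference of Ifit3b had the opposite sign (0.05, adjusted p = 0.909).

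In the brain all 9 members lay below their 3-month level at 9 and 15 months in the fitted log2 fold changes, and above it at 28 months. The lower direction turned in some alternatives for Ifit3b and Rsad2 at both ages (up to 0.07 and 0.02 at 9 months, 0.23 and 0.04 at 15) and for Ifit3 at 15 months (up to 0.18). Single preps are left out of these ranges. In prep 1 the mean levels of Ifit3, Ifit3b, Rsad2, Oasl2 and Usp18 were higher at 9 than at 3 months. Those of Ifit1, Oas1a, Isg15 and Irf7 were lower. Taken as 1 test over the 5 ages, a test added after the data were seen, 9 of 9 members differed with age (edgeR adjusted p from 7.96e-08 for Oasl2 to 0.00215 for Isg15), where 20.6% of 18711 genes did.

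**Figure D1:**
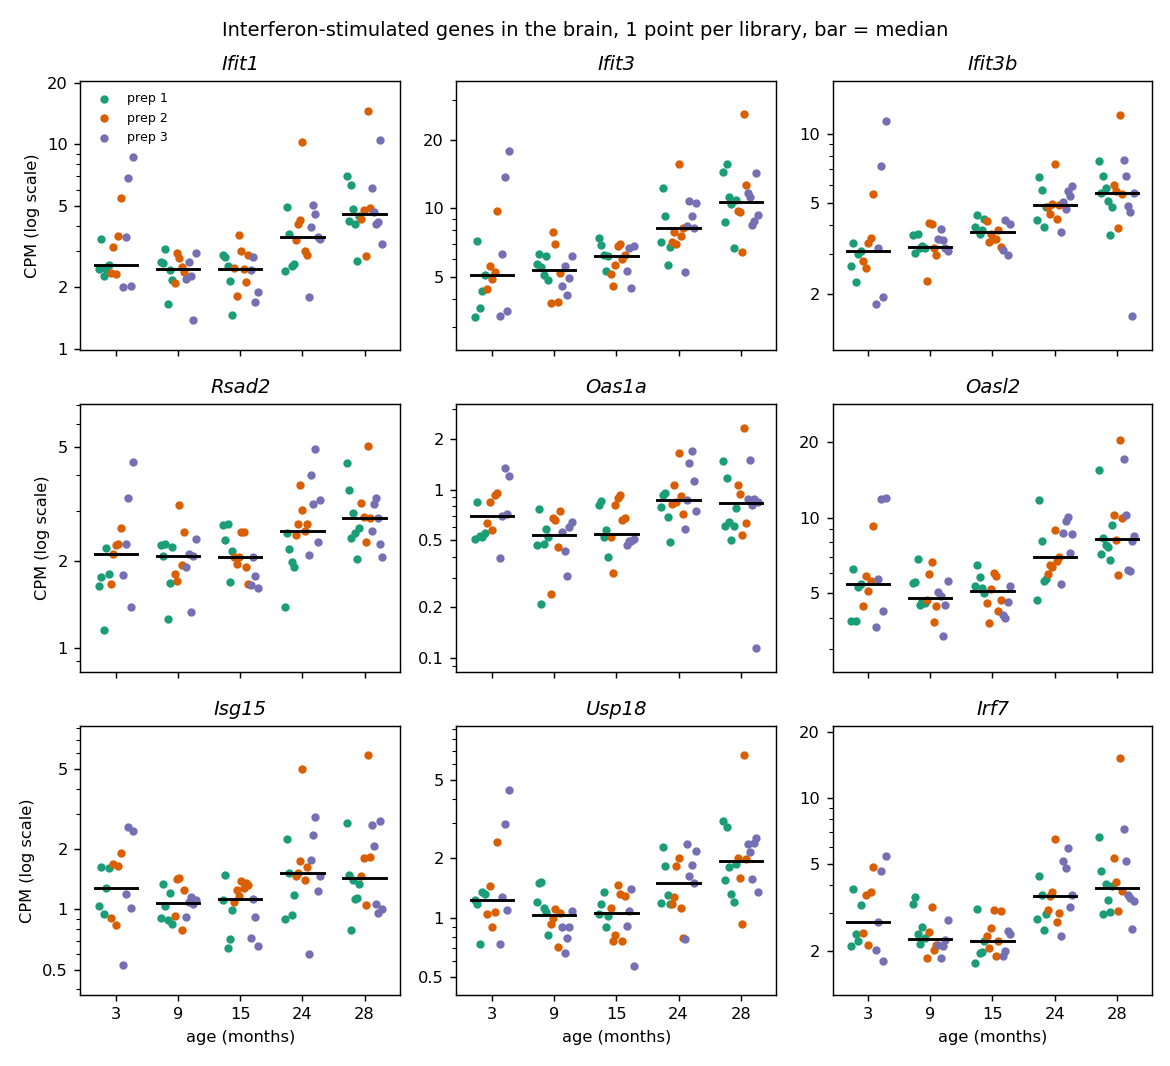
Level of each of the 9 genes in every brain library (CPM, log axis) by age in months, coloured by prep, with a black bar at the median. The medians of Ifit3, Ifit3b and Oasl2 are highest at 24 and 28 months, single libraries reach far above the rest at 3, 24 and 28 months, and the points at 9 and 15 months lie close together.

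From 3 to 28 months 6 of 9 members rose in brain and none fell, beside 28.3% of all tested genes that changed, 16.3% higher and 12.0% lower. The median log2 fold change of the 9 was 0.59, and that of all tested genes was 0.01. Ifit3 changed most. Its level ran from 3.33 to 17.9 CPM at 3 months (median 5.09, n = 15) and from 6.45 to 26.1 CPM at 28 months (median 10.7, n = 18). All 18 old brains were above the young median, while the 2 ranges overlapped, and the log2 fold change was 0.81 ± 0.17 (SE, edgeR adjusted p = 0.000103). Its neighbour Ifit3b ran from 1.81 to 11.3 CPM (median 3.08) and from 1.61 to 12.1 CPM (median 5.52), a log2 fold change of 0.59 ± 0.15 (adjusted p = 0.00247). With only the 2 ages fitted Ifit3b missed the threshold (0.62 ± 0.22, adjusted p = 0.0506). For Ifit3b 17 of 18 old brains were above the young median, and the exception was the shallow library of mouse 15. Ifit1 ran from 2.00 to 8.64 CPM at 3 months (median 2.58) and from 2.68 to 14.5 CPM at 28 months (median 4.58), again with all 18 above the young median (0.61 ± 0.18, adjusted p = 0.00818).

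The oligoadenylate synthetase relative Oasl2, whose family makes the second messenger that activates RNase L, ran from 3.68 to 12.0 CPM in young brain (median 5.46) and from 5.93 to 20.3 CPM in old brain (median 8.21). All 18 old brains exceeded the young median (log2 fold change 0.65 ± 0.15, adjusted p = 0.000418). Its relative Oas1a did not pass the test: 0.394 to 1.34 CPM (median 0.698) against 0.115 to 2.32 CPM (median 0.829), or 0.30 ± 0.18 (adjusted p = 0.207). Oas1a was counted with a median of 27 reads per young library, the thinnest of the 9. Rsad2, the gene of viperin, an enzyme that makes a chain-terminating nucleotide, ran from 1.15 to 4.43 CPM (median 2.12) and from 2.04 to 5.05 CPM (median 2.82), and its log2 fold change was 0.44 ± 0.13 (adjusted p = 0.00758).

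Among the regulators Irf7 rose in old brain. It ran from 1.82 to 5.42 CPM (median 2.72) and from 2.53 to 15.1 CPM (median 3.88), with 17 of 18 old brains above the young median (0.60 ± 0.16, adjusted p = 0.00306). The brake Usp18 ran from 0.736 to 4.43 CPM (median 1.22) and from 0.924 to 6.67 CPM (median 1.92), which missed the threshold at 0.47 ± 0.19 (adjusted p = 0.0556) although 16 of 18 old brains exceeded the young median. Usp18 passed with DESeq2 (0.49, adjusted p = 0.0402), with voom and quality weights (0.51, adjusted p = 0.0147) and in edgeR without any 1 of 10 libraries. Isg15, a ubiquitin-like protein that is attached to other proteins and that Usp18 removes, ran from 0.526 to 2.57 CPM (median 1.28) and from 0.787 to 5.87 CPM (median 1.43). Only 11 of 18 old brains were above the young median of Isg15, and the log2 fold change was 0.32 ± 0.20 (adjusted p = 0.221).

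The size of the brain change differed between preps. Fitted within prep 1, Ifit3 had a log2 fold change of 1.25 ± 0.20 and 6 of 9 members rose; within prep 2 it was 1.11 ± 0.30 and 2 rose; within prep 3 it was 0.23 ± 0.31 and 0 rose. Over all genes these fits called 1987 of 18658, 368 of 18769 and 1205 of 18942. In prep 3 the 9 fold changes ran from -0.07 for Usp18 to 0.36 for Irf7, with 0 members at an unadjusted p under 0.05. The young brains of prep 3 include those of mice 16 and 10, which held the highest and second highest Ifit3 levels of their age at 17.9 and 13.7 CPM. The difference between preps was not tested. Leaving out mouse 16 raised the Ifit3 change to 1.00 and brought Usp18 past the threshold (0.68, adjusted p = 0.00386). Leaving out old mouse 14, the highest in all 9 members, lowered Ifit3 to 0.70 and Irf7 to 0.41 (adjusted p = 0.0213), and the same 6 members passed. Without the library of mouse 15 the Ifit3 change was 0.80 and that of Ifit3b 0.64.

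From 3 to 24 months 0 of 9 members passed in brain with edgeR, where 10.1% of genes did (6.19% higher, 3.86% lower); 3 had an unadjusted p under 0.05, DESeq2 called 0 and voom with sample quality weights called 4 (Ifit3, Ifit3b, Rsad2 and Oasl2, all higher) among 4959 of 18711 genes. Ifit3b (0.39 ± 0.15) and Ifit3 (0.40 ± 0.17) had the largest values. Without young mouse 16, 3 members passed: Ifit3 at 0.59, Ifit3b at 0.61 and Rsad2 at 0.43. Against 15 months, 2 members rose by 24 months, where 0.732% of genes changed, 0.679% higher and 0.0534% lower. These were Irf7, from 1.78 to 3.11 CPM (median 2.23, n = 16) to 2.36 to 6.46 CPM (median 3.58, n = 17; 0.70 ± 0.16, adjusted p = 0.0135), and Oasl2 (0.56 ± 0.15, adjusted p = 0.0408). All 9 had an unadjusted p under 0.05 in that comparison, and the count ran from 1 to 4 when 1 library was left out, since Oasl2 lost its call without any of 16 libraries. From 24 to 28 months 0 of 9 passed with edgeR (1.09% of genes did, 0.529% higher and 0.561% lower), 5 had an unadjusted p under 0.05, DESeq2 called 0 and voom 1 (Ifit1, 0.48). Without the 24-month brain of mouse 13 edgeR called Ifit1 too (0.63, adjusted p = 0.0287).

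At 9 and 15 months the brain members were lower than at 3 months in direction only. With edgeR 0 of 9 passed at 9 months (0.315% of genes did, 0.187% higher and 0.128% lower) and 0 of 9 at 15 months (0.871%, with 0.524% higher and 0.347% lower), with 4 at an unadjusted p under 0.05 at each age, and DESeq2 and voom called 0 at both. The lowest values were -0.62 ± 0.21 for Usp18 and -0.53 ± 0.19 for Ifit1 at 9 months, and -0.54 ± 0.19 for Ifit1 and -0.54 ± 0.20 for Usp18 at 15 months. Medians of Ifit3 and Ifit3b did not follow the fitted sign: those of Ifit3 were 5.09, 5.34 and 6.19 CPM at 3, 9 and 15 months. For these genes the young group holds 3 libraries above all of the 15-month libraries, the brains of mice 10, 13 and 16.

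The spread between mice also moved with age. In brain the coefficient of variation of the 9 members had a median of 43.8% at 3 months, 20.5% at 9, 19.0% at 15, 31.9% at 24 and 53.1% at 28 months. Over all tested brain genes the medians at the same ages were 11.7, 12.9, 10.9, 17.2 and 23.9%. In liver the members' medians were 46.5, 18.7, 29.5, 41.5 and 53.9%, beside 20.4, 15.8, 15.4, 21.4 and 21.5% over all genes. In both organs all 9 members varied more at 3, 24 and 28 months than at 9 or 15 months, but single libraries carried part of this, as leaving out each in turn showed (a step added after the data were seen). Without mouse 12 the 3-month liver median fell to 29.6%, and 3 of 9 members still varied more than at both 9 and 15 months. Without mouse 10 the 24-month liver median was 31.4% (5 of 9), and without mouse 14 the 28-month brain median was 31.3% (8 of 9). These are descriptions, and no test of the spread was made.

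In liver all 9 members had fitted levels below the young level at 9 and 15 months, and Usp18 alone passed the test there. The sign of Irf7 at 15 months turned in some alternatives (-0.12 to 0.08), single preps left out. In prep 3 the mean levels of Irf7, Rsad2 and Oas1a were higher at 9 than at 3 months, and those of the other members lower. From 15 to 24 months 7 of 9 rose. In the added test over the 5 ages 8 of 9 members differed (adjusted p from 1.39e-07 for Usp18 to 0.0277 for Ifit3b), where 71.5% of 15579 liver genes did. Rsad2 did not pass (adjusted p = 0.0535).

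**Figure D2:**
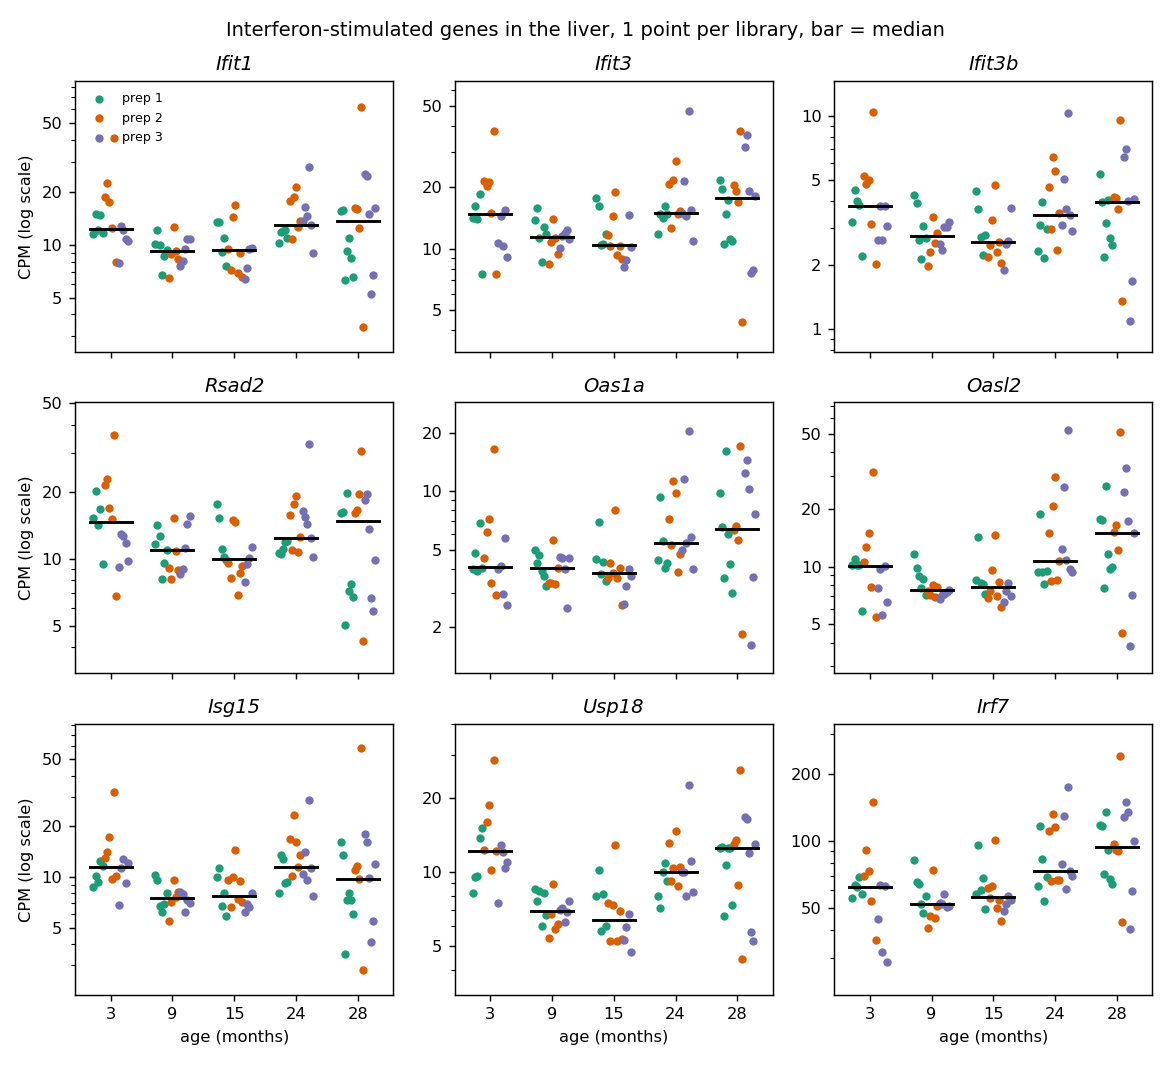
Level of each of the 9 genes in every liver library (CPM, log axis) by age in months, coloured by prep, with a black bar at the median. The medians are lower at 9 and 15 months than at 3 months, and the highest point of every gene at 28 months is the same mouse, number 14.

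From 3 to 28 months 3 of 9 members rose in liver and none fell, a share near the background, since 61.9% of liver genes changed, 31.9% higher and 30.0% lower. The median log2 fold change of the 9 was 0.07, beside 0.01 for all genes tested. Irf7 rose in liver as it did in brain. It ran from 28.6 to 149 CPM in young liver (median 62.5, n = 16) and from 40.5 to 239 CPM in old liver (median 94.2, n = 18), a log2 fold change of 0.72 ± 0.17 (edgeR adjusted p = 0.000192). Oasl2 ran from 5.46 to 31.5 CPM (median 10.1) and from 3.86 to 50.8 CPM (median 15.1; 0.68 ± 0.23, adjusted p = 0.00882). Oas1a ran from 2.61 to 16.5 CPM (median 4.09) and from 1.62 to 17.0 CPM (median 6.42; 0.56 ± 0.23, adjusted p = 0.0315). The young and old ranges of all 3 overlapped. Without old mouse 14, Oas1a (0.45, adjusted p = 0.0908) and Oasl2 (0.50, adjusted p = 0.0521) no longer passed and Irf7 did (0.60, adjusted p = 0.00133). Oas1a also lost its call without any of 5 other libraries, without the low-count filter (adjusted p = 0.0618) and with only the 2 ages fitted (adjusted p = 0.0746). Without young mouse 12 all 3 were larger, at 0.85 for Irf7, 0.88 for Oasl2 and 0.78 for Oas1a.

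The other 6 liver members did not pass. Ifit3 was at 0.22 ± 0.19, Ifit1 at 0.07 ± 0.21, Ifit3b at 0.00 ± 0.19, Isg15 at -0.01 ± 0.21, Usp18 at -0.13 ± 0.15 and Rsad2 at -0.22 ± 0.19. With a clock gene score as covariate Ifit3 passed (0.55 ± 0.21, adjusted p = 0.0248). With voom and sample quality weights Rsad2 was lower in old liver (-0.41, adjusted p = 0.0246) and Oas1a did not pass (0.41, adjusted p = 0.0524). Isg15 shows how wide the old group is: 2.8 to 58.2 CPM (median 9.79) beside 6.82 to 32.1 CPM in young liver (median 11.5). Within preps, Irf7 was at 0.60 ± 0.20 in prep 1, 0.51 ± 0.33 in prep 2 and 1.14 ± 0.29 in prep 3. The counts that passed were 1, 0 and 3 in preps 1, 2 and 3, where these fits called 6198 of 15529, 2457 of 15717 and 6721 of 15940 genes.

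The step that most members took together in liver was from 15 to 24 months, where 7 of 9 rose beside 36.0% of liver genes that changed, 21.6% higher and 14.4% lower. Oasl2 went from 6.16 to 14.6 CPM (median 7.81, n = 16) to 8.10 to 52.0 CPM (median 10.7, n = 17), a log2 fold change of 0.90 ± 0.24 (adjusted p = 0.00223). Oas1a (0.79 ± 0.24), Isg15 (0.69 ± 0.21), Usp18 (0.63 ± 0.16), Ifit3 (0.59 ± 0.19), Irf7 (0.59 ± 0.17) and Ifit1 (0.56 ± 0.21) rose as well. Ifit3b (0.48 ± 0.20, adjusted p = 0.0521) and Rsad2 (0.41 ± 0.19, adjusted p = 0.0890) had the same direction. Leaving out the 24-month liver of mouse 10, the highest of its age in all 9 members, took Ifit1 (0.47, adjusted p = 0.0721) and Ifit3 (0.44, adjusted p = 0.0532) below the threshold. Ifit1 also missed it without the 24-month liver of mouse 13 (0.52, adjusted p = 0.0522), without the 15-month liver of mouse 5 (0.53, adjusted p = 0.0503) and without the low-count filter (adjusted p = 0.0575). Within preps 0, 0 and 1 members passed in preps 1, 2 and 3, where 3 of 15529, 2630 of 15717 and 1290 of 15940 genes did, and Oasl2 was at 0.25, 0.83 and 1.44. From 24 to 28 months 0 of 9 liver members passed with edgeR, where 15.3% of genes did (6.18% higher, 9.13% lower); 0 had an unadjusted p under 0.05, and DESeq2 and voom also called 0.

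Against 3 months, the brake Usp18 was the member that fell in middle-aged liver. It ran from 7.44 to 28.6 CPM at 3 months (median 12.1, n = 16), from 5.36 to 8.90 CPM at 9 months (median 6.93, n = 16) and from 4.74 to 12.9 CPM at 15 months (median 6.36, n = 16). The log2 fold change was -0.85 ± 0.16 at 9 months (adjusted p = 0.000399) and -0.89 ± 0.16 at 15 months (adjusted p = 6.77e-05). The other 8 were below the young level at both ages without passing, from -0.16 for Irf7 to -0.65 for Isg15 at 9 months and from -0.05 for Irf7 to -0.58 for Isg15 at 15 months. That is 1 of 9 members at each age, where 4.69% (1.53% higher, 3.16% lower) and 7.32% (3.06% higher, 4.26% lower) of liver genes changed. With voom and quality weights 4 members fell at 9 months, among 316 of 15579 genes that changed in that fit, and 5 at 15 months, among 967. By 24 months 2 members were above the young level, Irf7 (0.53 ± 0.17, adjusted p = 0.00745) and Oasl2 (0.59 ± 0.24, adjusted p = 0.0333), while 49.0% of genes changed, 25.0% higher and 24.0% lower; voom called 0, and without the 24-month mouse 10 Oasl2 was at 0.37 (adjusted p = 0.163) and Usp18 was lower than at 3 months (-0.37, adjusted p = 0.0340). Oasl2 lost its call without any 1 of 8 libraries, 24-month mice 6, 10 and 13 and young mice 3, 10, 13, 15 and 16, and also without the low-count filter and with only the 2 ages fitted. Without young mouse 12 Oas1a passed as well (0.68, adjusted p = 0.00924).

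**Figure D3:**
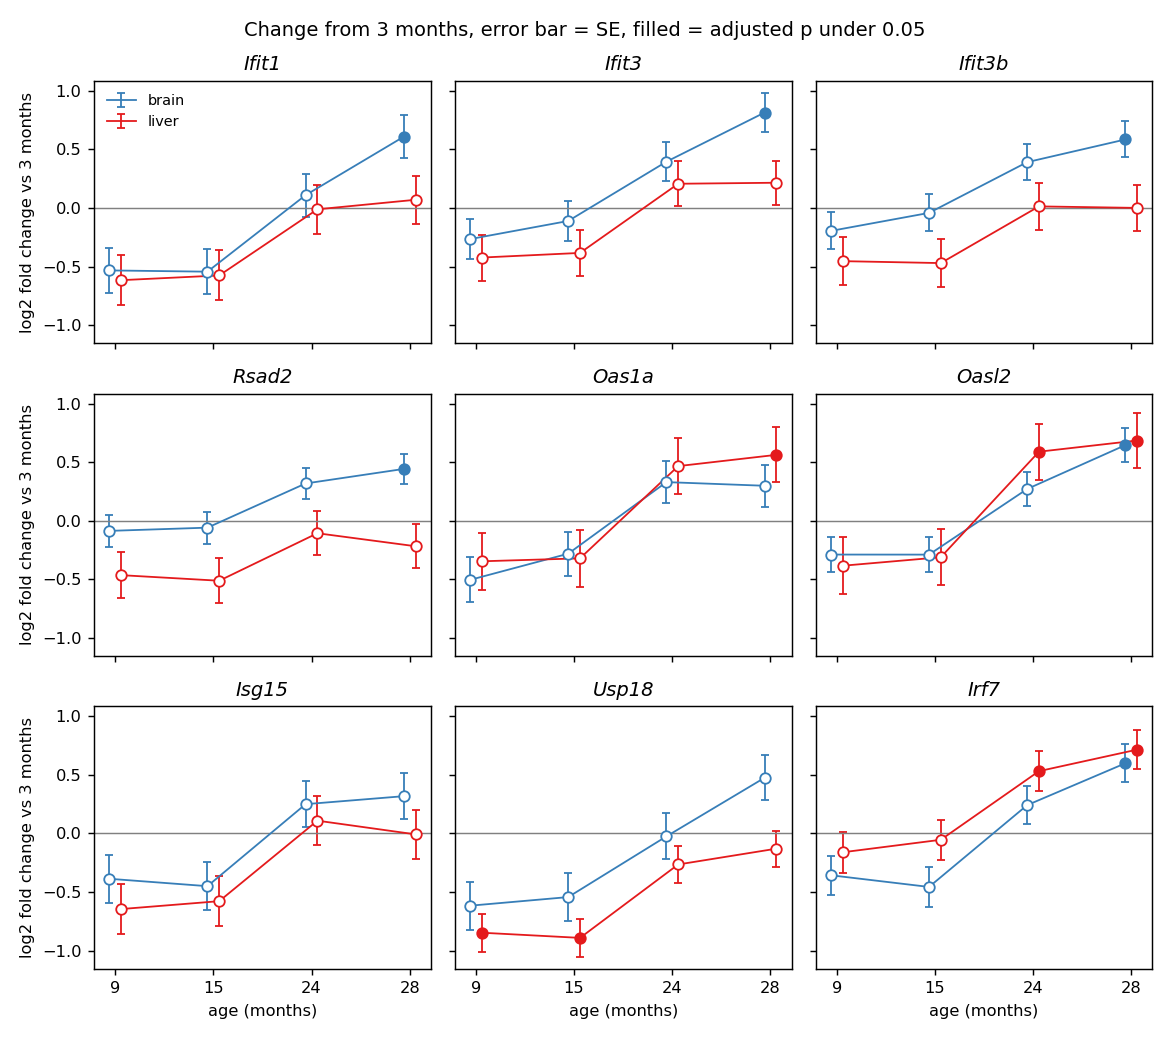
Log2 fold change from 3 months with its standard error for each gene at 9, 15, 24 and 28 months, in brain (blue) and liver (red), filled where the adjusted p is under 0.05. Most curves lie below 0 at 9 and 15 months; at 28 months 6 brain and 3 liver points are filled, and Irf7 and Oasl2 are filled in both organs.

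The number of members whose change from 3 to 28 months differed between the organs depended on the fit. It was 1 with edgeR, 5 with the mouse kept as a block, 4 with DESeq2, 4 with RLE factors, 5 with voom and 0 with only the 3 and 28 month libraries. The difference was tested directly in the joint model, where 49.2% of 14035 genes differed, 21.9% with brain above liver and 27.2% below. Rsad2 changed by 0.44 in brain and by -0.22 in liver, a difference of 0.62 ± 0.23 (brain minus liver, adjusted p = 0.0192). With the mouse, as the labels number it, kept as a block, Rsad2 (0.70 ± 0.19, adjusted p = 0.00216), Ifit1 (0.70, adjusted p = 0.0126), Ifit3 (0.72, adjusted p = 0.0160), Ifit3b (0.69, adjusted p = 0.00658) and Usp18 (0.61, adjusted p = 0.0172) differed, all higher in brain. Isg15, Oas1a, Oasl2 and Irf7 did not pass in the edgeR fit with or without the block. Within preps the Rsad2 difference was 1.21 in prep 1 (adjusted p = 0.00491), 0.72 in prep 2 and -0.17 in prep 3. Without young mouse 12 it missed the threshold (0.51, adjusted p = 0.0556), and without young mouse 16, 5 members passed. Without old mouse 14 Ifit1 (0.62, adjusted p = 0.0361) and Ifit3b (0.58, adjusted p = 0.0395) passed, and without old mouse 15 Ifit3b did (0.56, adjusted p = 0.0472).

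Single mice stood out for most or all members at once. The 28-month mouse 14 held the highest value of its age for all 9 members in brain and again for all 9 in liver. In its brain Irf7 was at 15.1 CPM, with the next mouse at 7.22, and in its liver Isg15 was at 58.2 CPM, with the next mouse at 18.0. Its liver marker genes of Kupffer cells, the resident macrophages, summed to 933 CPM, 13th highest of 18, and those of monocytes and neutrophils to 122 CPM, 5th of 18. Markers of plasmacytoid dendritic cells, known producers of interferon, summed to 183 CPM in its liver, the highest of the age, and were also highest of their age in the 3-month liver of mouse 12 (225 CPM) and the 24-month liver of mouse 10 (242 CPM). That list holds Bst2, itself an interferon-stimulated gene, and also Pacsin1. Its median sum at 28 months was 448 CPM in brain and 119 CPM in liver. Whether it tracks these cells in brain was not tested, so its brain sums are not read as their level. In brain the sum was 464 CPM in mouse 14, 7th of 18, and 233 CPM in the 24-month mouse 13, the lowest of 17. Microglial markers in the brain of the 28-month mouse 14 summed to 420 CPM, 11th of 18. At 24 months the liver of mouse 10 was highest for all 9 members, and there the Kupffer sum (1780 CPM) and the monocyte and neutrophil sum (542 CPM) were also the highest of the age. The 24-month brain of mouse 13 led for 5 members, with the highest microglial sum of its age (560 CPM). At 15 months the liver of mouse 6 was highest for 8 of 9 members. Its Kupffer (889 CPM) and plasmacytoid dendritic cell (205 CPM) sums were the highest of that age, and its monocyte and neutrophil sum (32.3 CPM) ranked 3rd of 16.

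Young mice divided differently. The 3-month liver of mouse 12 held the highest value for all 9 members (Irf7 at 149 CPM, with the next at 91.3) together with the highest young sums of Kupffer (1321 CPM), monocyte and neutrophil (74.1 CPM), and T and NK cell (32.0 CPM) markers. The median rank of its brain over the members was 5 of 15. The 3-month brains of mice 16, 10 and 13 took ranks 1 to 3 for every member, and their livers were at median ranks 13, 13 and 15 of 16. Ifit3 in these 3 brains was 17.9, 13.7 and 9.75 CPM, and in the livers of the same mice 9.09, 10.3 and 7.52 CPM, all below the young liver median of 14.7. Microglial marker sums in the 3 brains were 342, 372 and 344 CPM, ranks 15, 4 and 12 of 15. The part of these cells in the members' levels was not tested.

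The level of a member in the brain went with its level in the liver of the same mouse for some members. After the means of age and prep were removed, Pearson's r over 82 mice was 0.52 for Isg15 (Spearman's rho 0.45, permutation p = 7e-05 for r), 0.42 for Irf7 (rho 0.41, p = 0.00067), 0.33 for Rsad2 (rho 0.32, p = 0.00345) and 0.33 for Oas1a (rho 0.29, p = 0.0109). Oasl2 (r = 0.29, rho = 0.24, permutation p = 0.0207) and Ifit3b (r = 0.28, rho = 0.28, permutation p = 0.0323) were lower. For Ifit1 (r = 0.24, rho = 0.25, permutation p = 0.0574), Usp18 (r = 0.20, rho = 0.14, permutation p = 0.119) and Ifit3 (r = -0.01, rho = -0.01, permutation p = 0.961) r did not pass. These 9 p-values are not adjusted for their number. Over all 14035 genes the median r was -0.01, and the 95th percentile was 0.25. Without the 2 mice farthest from the brain median, r was 0.44 for Isg15, 0.42 for Irf7, 0.34 for Rsad2 and 0.25 for Oas1a.

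The values of r differed between age groups, and that difference was not tested. Irf7 had r = 0.71 at 9 months, 0.52 at 15, 0.67 at 24 and 0.69 at 28 months, and r = -0.35 at 3 months, where mice 10, 13 and 16 were high in brain and low in liver. The pairing of organs rests on the shared number in the labels and was not checked by genotype, at this age or any other. At 3 months r was below 0 for 7 of 9 members, from -0.09 for Ifit1 to -0.41 for Oasl2 and Ifit3. Isg15 (0.36 to 0.64) and Usp18 (0.10 to 0.40) were above 0 at all 5 ages. Within preps 1, 2 and 3, r was 0.72, 0.51 and 0.44 for Isg15 and 0.66, 0.54 and 0.15 for Irf7.

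**Figure D4:**
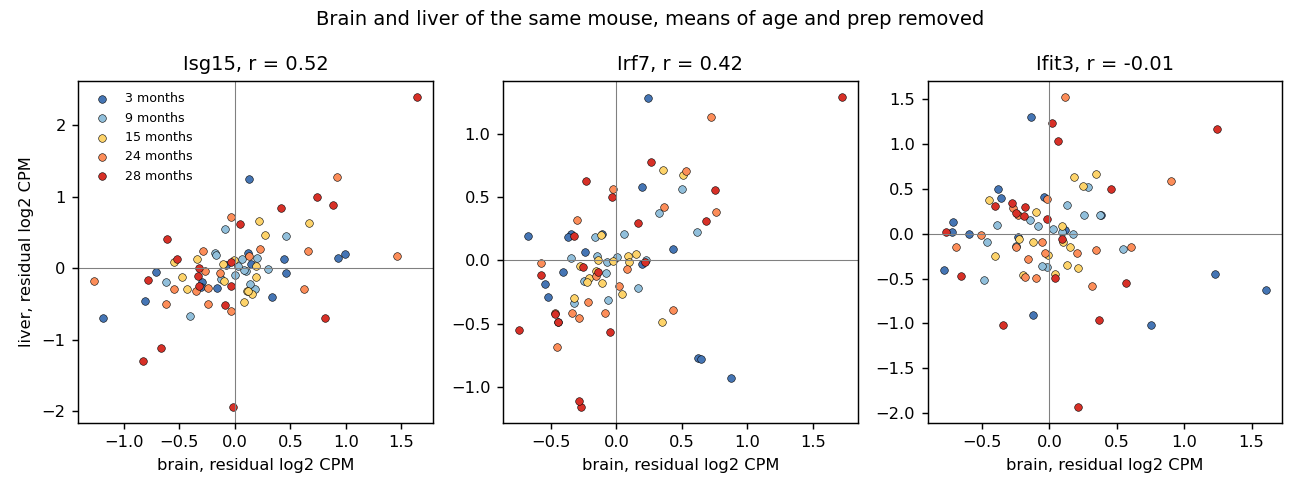
Residual log2 CPM in liver against brain of the same mouse after age and prep means were removed, for Isg15, Irf7 and Ifit3, 82 mice coloured by age. Isg15 and Irf7 points rise together, 3 young mice lie to the lower right for Irf7 and Ifit3, and 1 old mouse, number 14, lies at the upper right in all 3 panels.

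Within an organ the members varied as a group. Over the 36 pairs of members, the correlation of residual log2 CPM ran from 0.42 to 0.85 in brain (median 0.68, n = 82) and from 0.72 to 0.93 in liver (median 0.84, n = 83). Spearman coefficients had medians of 0.62 and 0.79, and the medians without the 2 farthest libraries were 0.62 and 0.81. Paralogous members share some reads, and all members share library size. In brain the non-member genes most like the mean of the 9 were Rtp4 (r = 0.84), Trim30a (0.76), Ifi44 (0.75), Gbp3 (0.75) and Parp14 (0.74), out of 14999 genes with at least 1 CPM on average. In liver they were Lgals3bp (0.94), Xaf1 (0.94), Ifi44 (0.93), Rtp4 (0.92) and Ifit2 (0.89), out of 12749 genes. Of the 50 most alike genes, 28 in brain and 31 in liver belong to the interferon pathway lists, which hold 78 of the 14999 brain genes and 98 of the 12749 liver genes. The 95th percentile of r over all these genes was 0.22 in brain and 0.63 in liver.

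Upstream of the members, the type I ligands were at the edge of detection. Of 18 type I interferon genes, 13 had any read in brain, 72 reads in all over 82 libraries, and 8 in liver, 25 reads in all over 83 libraries. None of these genes had more than 3 reads in a library, so a change in them was not detectable at this depth. Ifng, the type II ligand, had 11 reads in all brain libraries and 445 in liver, at most 91 in 1 library.

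The receptor and its kinases did not pass the test in brain. Ifnar1 was at -0.07 ± 0.04 and Ifnar2 at -0.03 ± 0.04 from 3 to 28 months, Jak1 at -0.12 ± 0.07 and Tyk2 at -0.10 ± 0.04. Stat2 (-0.01 ± 0.05) and Irf9 (-0.10 ± 0.08) did not pass either. Among the 13 listed signalling genes 4 rose and 2 fell in brain, beside 16.3% and 12.0% of all genes, and 4 rose and 2 fell in liver, beside 31.9% and 30.0%. Those that rose in brain were Socs3 (0.59 ± 0.16), an inhibitor of cytokine receptors, and the transcription factors Irf8 (0.44 ± 0.06), Irf5 (0.33 ± 0.06) and Irf1 (0.20 ± 0.06), while Irf3 (-0.23 ± 0.07) and the phosphatase Ptpn2 (-0.22 ± 0.05) fell. In liver Ifnar1 rose slightly (0.12 ± 0.04, edgeR adjusted p = 0.00917) and Ifnar2 did not pass (0.08 ± 0.06). Jak1 (0.06 ± 0.05), Tyk2 (0.00 ± 0.06) and Irf9 (0.00 ± 0.07) did not pass there, and Stat2 fell (-0.25 ± 0.09, adjusted p = 0.0161). Socs3 (2.02 ± 0.35), Socs1 (1.29 ± 0.33), Irf8 (1.26 ± 0.21) and Irf1 (0.71 ± 0.14) rose in liver, and Irf3 fell (-0.25 ± 0.04).

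The next list held nucleic acid sensors and adaptors, together with nucleases and editors that limit self nucleic acid. Of its genes, 10 of 21 tested rose and 1 fell in brain, beside 16.3% of all genes that rose and 12.0% that fell. In liver 10 of 21 rose and 4 fell, beside 31.9% and 30.0%. The nucleic acid sensors Zbp1 (1.13 ± 0.31 in brain, 1.41 ± 0.31 in liver) and Aim2 (0.75 ± 0.09 and 1.77 ± 0.25) and the endosomal receptors Tlr7 (0.45 ± 0.10 and 1.08 ± 0.23) and Tlr9 (0.36 ± 0.14 and 2.14 ± 0.45) were the 4 largest in both organs. Mavs, the adaptor of the cytosolic RNA sensors, fell in both, by 0.21 in brain and by 0.45 in liver on the log2 scale. Rnaseh2c (-0.40) and Rnaseh2a (-0.14), listed with the nucleases, fell in liver, as did Ticam1 (-0.39).

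Of 68 other interferon-stimulated genes on the list, 62 were tested in brain, where 32 rose and 2 fell with a median log2 fold change of 0.37, beside 16.3% of all genes that rose and 12.0% that fell. In liver 66 were tested, 36 rose and 10 fell, with a median of 0.35, beside 31.9% of all genes that rose and 30.0% that fell. The largest brain changes were those of Apol9a (2.00 ± 0.35) and Apol9b (1.92 ± 0.34), near copies of each other whose reads may be split, followed by Ifi204 (1.16 ± 0.20) and Gm4951 (1.04 ± 0.26). Ifit1bl2 (-0.49) and Cmpk2 (-0.15) fell in brain. In liver the largest were Ifit1bl1 (2.41 ± 0.33) and the Schlafen genes Slfn2 (1.67 ± 0.26) and Slfn8 (1.31 ± 0.23), with Sp110 (1.30 ± 0.23). Lgals9 (-0.39), Pnpt1 (-0.39), Gm4951 (-0.39) and Helz2 (-0.31) fell in liver. Gm4951 thus rose in brain and fell in liver.

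**Figure D5:**
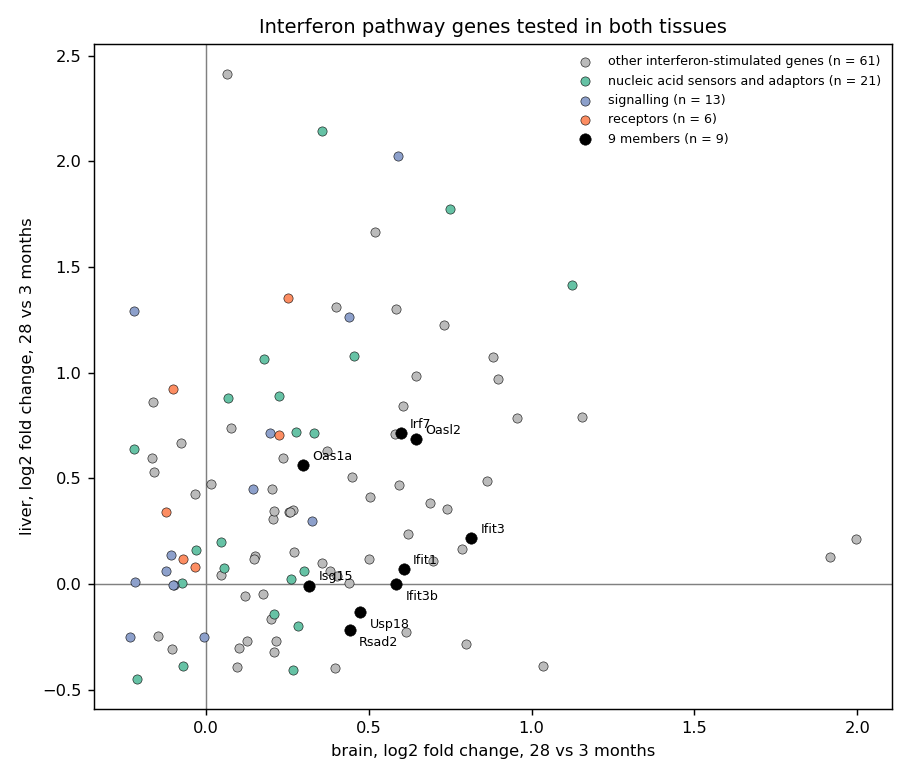
Log2 fold change from 3 to 28 months in liver against brain for interferon pathway genes tested in both organs, coloured by list. The 9 members (black) all lie to the right of 0 on the brain axis, while on the liver axis Irf7, Oasl2 and Oas1a lie above 0.5 and the other 6 lie between -0.22 and 0.22.

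Marker genes of several immune cell types moved with the same comparison. In brain 7 of 8 microglial markers rose from 3 to 28 months, and their summed level ran from 342 to 415 CPM in young and from 370 to 669 CPM in old brain. The medians of that sum were 360, 414, 409, 446 and 426 CPM at 3, 9, 15, 24 and 28 months. Monocyte and neutrophil markers rose for 4 of 6 tested in brain (6.78 to 13.1 CPM in young, 10.8 to 39.7 CPM in old), and of the T and NK cell markers 1 was tested and 0 passed. In liver all 8 Kupffer markers rose (366 to 1321 CPM in young, 587 to 4842 CPM in old), as did 7 of 7 tested monocyte and neutrophil markers (11.0 to 74.1 and 21.1 to 582 CPM), 6 of 8 T and NK cell markers (4.02 to 32.0 and 8.16 to 38.3 CPM) and 6 of 7 tested B and plasma cell markers (9.89 to 30.8 and 16.4 to 344 CPM). Other lists did not rise as a whole: 1 of 4 tested B and plasma cell markers rose and 1 fell in brain (median sums 3.55 and 3.51 CPM), and of 4 tested plasmacytoid dendritic cell markers 1 rose and 2 fell in liver (146 and 119 CPM) and 2 rose in brain (459 and 448 CPM). The plasmacytoid list, which holds Bst2 and Pacsin1, summed higher in brain than in liver. Its brain sum is therefore not read as a level of these cells. Over all tested genes, 16.3% rose in brain and 31.9% in liver. No marker of these lists was at 0 in every library of its organ. The part of these markers in the members' changes was not tested.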

How the data were processed

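Gene-level read counts of 82 brain and 83 liver libraries were used as deposited, without normalization by the authors. Per the submitters' processing notes the tools were cutadapt 2.8, HISAT2 2.1.0, SAMtools 1.9 and featureCounts of Subread 2.0.1, on GRCm38.p6; the strand setting and annotation used for counting are not given in the sources used here. Of 55471 identifiers 55144 matched a symbol. Each organ was fitted with edgeR 4.0.16 (R 4.3.3) after filterByExpr by age and TMM scaling, with age and prep as terms and the quasi-likelihood test. A joint fit of both organs used organ by age and organ by prep, without a term for the mouse. P-values were adjusted by Benjamini-Hochberg over all genes tested, and a gene passed at an adjusted p under 0.05. Standard errors were derived from the fold change and its F statistic. Correlations used log2 CPM with a prior count of 2 and 100000 permutations of liver libraries within age. All samples of an age are separate mice. Brain and liver libraries that share an age and number in the labels were taken as 1 mouse; over genes, residuals of such pairs had a median correlation of 0.05 (highest 0.256), against 0.00 for other pairs of an age. The members and lists were chosen with earlier results of these data known. Named genes are all members, ligands, type I receptors and kinases, Stat2 and Irf9, and per organ the 4 largest and 4 lowest that passed in the sensor and other lists; Socs, Irf and Ptpn2 genes were named after their values were seen. The result of 1 listed signalling gene is not reported here. Alternatives were RLE scaling, DESeq2 1.42.0, voom of limma 3.58.1 with quality weights, no low-count filter, no prep term, a clock gene covariate, a replicate block, fewer ages, each prep alone and each library left out. The scripts were tested on simulated data.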

Additional observations from a re-analysis of the deposited data

Results flagged for a closer look

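The change of Rsad2 from 3 to 28 months differed between brain and liver: the difference, brain minus liver, was 0.62 on the log2 scale (SE 0.23, edgeR adjusted p = 0.0192), with 0.44 in brain and -0.22 in liver. That is 1 of 9 members, where 49.2% of all genes differed; with the mouse as a block 5 did. Without young mouse 12 the Rsad2 difference missed the threshold (0.51, adjusted p = 0.0556). In brain 16 of 18 old libraries were above the young median. The adjusted p over all alternatives other than single preps ran from 0.000105 to 0.0701.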

How the results depend on the processing

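Of 3996 values of single members with 1 library or mouse left out, 65 gained a call, 36 lost one and 0 reversed; of 1368 under other alternatives, 55 gained, 66 lost and 2 reversed, and 116 and 100 changed sign with no call in either fit. The 2 that reversed came from prep 3 alone, the organ difference of Rsad2 (-0.17) and brain against liver of Ifit3b (0.049). The cause was not tested. Single preps hold 4 to 7 libraries an age.

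Counts of members that passed moved as follows. In brain, 24 against 3 months gave 0, and 4 with voom and 2 in prep 1; 28 against 3 gave 6, and 2 in prep 2 and 0 in prep 3; 28 against 24 gave 0, and 1 with voom. Brain 24 against 15 gave 2, and 1 without the low-count filter, 1 with the replicate block, 4 with DESeq2, 5 with only both ages fitted and 0 in each prep. All ages together gave 9, and 5, 4 and 0 in preps 1, 2 and 3. In liver, 9 against 3 gave 1, and 2 without the prep term, 4 with voom, 2 with DESeq2, 3 with only both ages and 0 in each prep. Liver 15 against 3 gave 1, and 5 with voom, 3 with only both ages and 0 in each prep. Liver 24 against 3 gave 2, and 1 without the filter, 0 with voom, 1 with only both ages and 0 in preps 1 and 2. Liver 28 against 3 gave 3, and 1 and 0 in preps 1 and 2; 24 against 15 gave 7, and 0, 0 and 1 in preps 1, 2 and 3; all ages gave 8, and 2, 1 and 4. The organ difference gave 1, and 5 with the mouse as replicate block, 4 with DESeq2, 4 with RLE factors, 2 without the prep term, 5 with voom, 0 with only the 3 and 28 month libraries, and 5, 0 and 0 in preps 1, 2 and 3. With age means alone removed, r of Ifit1 was 0.26 and passed.

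With 1 library left out, brain counts ran from 0 to 0 (9 and 15 against 3 months), 0 to 3 (24 against 3), 6 to 7 (28 against 3), 1 to 4 (24 against 15), 0 to 1 (28 against 24) and 9 to 9 (all ages). Liver counts ran from 1 to 2, 1 to 1, 1 to 3, 1 to 3, 5 to 9, 0 to 0 and 8 to 9 in the same order of comparisons. The organ difference ran from 0 to 5, and brain against liver from 9 to 9.

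The same replicate number at 2 ages names different mice: brain residuals at 3 and 28 months had a median correlation of 0.09 over 15 such pairs, 6 were over 0.1 and 0 correlated best with their own number. The replicate block within an organ changed no other count by over 1.5 times. The clock gene covariate moved no count by that much, although Ifit3 in liver at 28 against 3 months gained a call (0.55). At this depth a change in the type I interferon genes was not detectable.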
